A study of Mus musculus with 9 samples.

Results

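The 10 genes described here are the regulators that commit an epithelial cell to the multiciliated fate and build its cilia: Foxj1, Rfx2, Rfx3, Trp73, Mcidas, Gmnc, Ccno, Cdc20b, Foxn4 and Myb. They were taken by symbol from the 19435 genes of the deposited table, where each occurred once. The study sequenced poly-A mRNA from 4 primary mouse tumors and 5 normal oviducts, all listed with oviduct as their source. The tumors carried the genotype Dicer1ko/D1693N, a null allele beside the D1693N substitution, which lies in the RNase IIIb domain of the miRNA-processing enzyme Dicer1. Of the oviducts, 3 were Dicer1+/D1693N and so carried the substitution beside an intact allele, and 2 were Dicer1+/+. No group was treated, and the age, the strain, the way the ko allele was made and whether animals were pooled are not given in the sources used here.

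Multiciliated cells line the oviduct beside secretory cells and beat to move the egg. In the known order of the program, the geminin-family proteins Gmnc and Mcidas bind E2f4 and E2f5 and switch on a set of transcription factors, among them Trp73, Myb, Foxj1 and the Rfx factors, while Ccno and Cdc20b serve the mass production of centrioles that become basal bodies. Foxj1 and the Rfx factors then activate the genes of the motile axoneme. In whole tissue, fewer multiciliated cells and less RNA per cell cannot be told apart.

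The libraries held 8732190 to 11267144 reads in tumors and 8504993 to 12526078 in oviducts. Dicer1 itself, whose D1693N allele can still give mRNA, had 576 to 1379 normalized counts (reads over the library's size factor) in tumors and 904 to 1237 in oviducts and was not called (log2 change -0.21 ± 0.25, SE, adjusted p = 0.569 by limma with Benjamini-Hochberg adjustment). Ovgp1, the glycoprotein that oviduct secretory cells pour out, had 111.5 to 11680 normalized counts in tumors and 78140 to 150600 in oviducts, so the defining secretory product was present in every oviduct library. The level of a gene that no read reached is not 0 on the deposited log2 scale but 3.43. A single library with 0 reads still allows a level of up to 3 counts, at most 3.41 normalized counts in a tumor and 3.35 in an oviduct. This limit is set per library, and 0 reads in every library of a group allow less. Intervals and floors cover counting error only.

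Ccno, Mcidas and Cdc20b lie side by side on the plus strand of chromosome 13 (GRCm38). Ccno occupies 112987802 to 112990777, Mcidas 112993845 to 113000394 and Cdc20b 113035111 to 113091195, with 3067 bases between Ccno and Mcidas and 34716 between Mcidas and Cdc20b. Intron 2 of Cdc20b holds 3 miRNA genes, Mir449c, Mir449b and Mir449a. The miR-449 family and the miR-34 family, which are known to act together in multiciliated cells, are shown because they are Dicer1 products that share 1 seed (bases 2 to 8, in capitals; RefSeq, GRCm38.p6):
miR-449a-5p: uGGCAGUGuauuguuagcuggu
miR-449c-5p: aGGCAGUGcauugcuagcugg
miR-34a-5p: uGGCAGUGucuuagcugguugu
miR-34b-5p: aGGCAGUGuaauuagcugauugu
All 4 read GGCAGUG at bases 2 to 8. Their levels were not measured in these mRNA libraries, and Cdc20b mRNA is the only reading of that host gene here.

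The promoter windows of the 3 neighbours and of Trp73 are printed because these 4 genes span what tumors retained: Ccno was not called, while Mcidas, Cdc20b and Trp73 were at or near 0. Each window holds 300 bases around a RefSeq start site, most of them upstream (GRCm38.p6, 5′ to 3′ along the gene), and negative positions count back from that site. RefSeq and GENCODE starts can differ: the RefSeq site of Cdc20b lay 268 bases, that of the printed Trp73 window 333 bases and that of Mcidas 23 bases downstream of the GENCODE gene start, so that these windows lie partly or wholly inside the GENCODE genes. A second Trp73 window (chr4:154097124-154097423), at a start site within the gene, held none of the motifs searched and is not printed. Capitals mark the RFX half-site GTTGCC on either strand and, in Trp73, also the E2F motif GGCGGGAA on either strand.
Ccno, chr13:112987552-112987851, + strand: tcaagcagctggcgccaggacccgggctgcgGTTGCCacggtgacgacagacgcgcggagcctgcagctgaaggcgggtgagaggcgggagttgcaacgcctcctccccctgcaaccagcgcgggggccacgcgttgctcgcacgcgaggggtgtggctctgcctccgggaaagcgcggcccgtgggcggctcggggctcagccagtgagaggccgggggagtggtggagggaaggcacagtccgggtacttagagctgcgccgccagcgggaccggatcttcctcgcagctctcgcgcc
Mcidas, chr13:112993618-112993917, + strand: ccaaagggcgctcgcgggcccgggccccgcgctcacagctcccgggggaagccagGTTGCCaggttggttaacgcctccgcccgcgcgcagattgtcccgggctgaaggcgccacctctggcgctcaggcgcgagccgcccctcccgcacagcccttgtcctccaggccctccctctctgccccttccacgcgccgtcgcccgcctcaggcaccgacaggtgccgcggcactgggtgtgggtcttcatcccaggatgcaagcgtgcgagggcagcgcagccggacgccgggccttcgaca
Cdc20b, chr13:113035129-113035428, + strand: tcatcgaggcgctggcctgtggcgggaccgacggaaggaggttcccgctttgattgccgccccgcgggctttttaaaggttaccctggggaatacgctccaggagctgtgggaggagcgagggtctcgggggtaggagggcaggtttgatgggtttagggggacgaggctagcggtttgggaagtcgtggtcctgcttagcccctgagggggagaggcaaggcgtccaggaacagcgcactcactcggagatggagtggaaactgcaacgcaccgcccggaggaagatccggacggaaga
Trp73, chr4:154139826-154140125, - strand: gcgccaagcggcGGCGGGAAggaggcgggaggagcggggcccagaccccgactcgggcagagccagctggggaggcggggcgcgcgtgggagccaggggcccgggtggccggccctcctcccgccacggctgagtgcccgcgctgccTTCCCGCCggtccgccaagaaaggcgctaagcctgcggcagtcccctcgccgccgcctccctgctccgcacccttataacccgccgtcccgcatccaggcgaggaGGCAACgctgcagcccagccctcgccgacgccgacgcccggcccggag
A half-site began at -219 in Ccno and at -195 in Mcidas, whereas the Cdc20b window held none of the motifs searched. Across the 11 windows found for 9 of the members, 5 held the half-site, 1 in each of Ccno, Mcidas, Rfx2, Rfx3 and Trp73, against 12.5% of 32851 promoters of the same length. The X-box, 2 half-sites of the form GTTNCC and its reverse complement with 2 bases between them, which overlaps the half-site, was in none of the 11 windows and in 0.451% of all promoters. The E2F motif was in 1 window, the printed one of Trp73, with copies beginning at -238 and -103, against 2.19% of all promoters. The forkhead motif TGTTTAC was in 1 window, that of Myb, against 3.65%. These are matches of letters and do not show binding.

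Per kilobase of exon, the normal oviduct expressed 1 regulator far above the rest. Foxj1 averaged 2049 ± 419 normalized counts per kilobase in the 5 oviducts (SD), and its lowest oviduct, at 1595, stood above the highest value of every other member. A second tier held Rfx2 at 91.5 ± 16.2, Trp73 at 88.4 ± 8.20, Rfx3 at 68.1 ± 12.9 and Myb at 62.5 ± 8.65 per kilobase, neighbours whose ranges over oviducts overlapped. The third tier held Gmnc at 17.1 ± 9.75, Foxn4 at 13.4 ± 5.58, Ccno at 8.79 ± 3.84, Mcidas at 6.66 ± 4.42 and Cdc20b at 6.07 ± 3.52 per kilobase, again with overlapping ranges. The highest Gmnc value, 33.1, lay below the lowest Myb value, 50.9. The scarcest tier thus held the geminin-family factors and the genes of centriole production, together with Foxn4.

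Between tumors and oviducts, 9 of the 10 regulators were lower in tumors and none was higher, where 12.1% of all genes were called lower and 6.53% higher. Calling required a limma p under 0.05 after Benjamini-Hochberg adjustment over the whole table, together with a log2 change of at least 1 in size. The exception was Ccno. In 8 of the 10, every tumor lay below every oviduct, as in 16.8% of all genes, and the members that overlapped were Myb and Ccno. The median log2 change of the 10 was -2.20, also with Foxn4 at its bound, and that of all genes was -0.05. The floor of the deposited scale limits the low members, and on log2(normalized count + 1) the median of the 10 was -3.46. The p-values measure the spread between these libraries, since the labels do not say that each came from a separate animal.

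**Figure D1:**
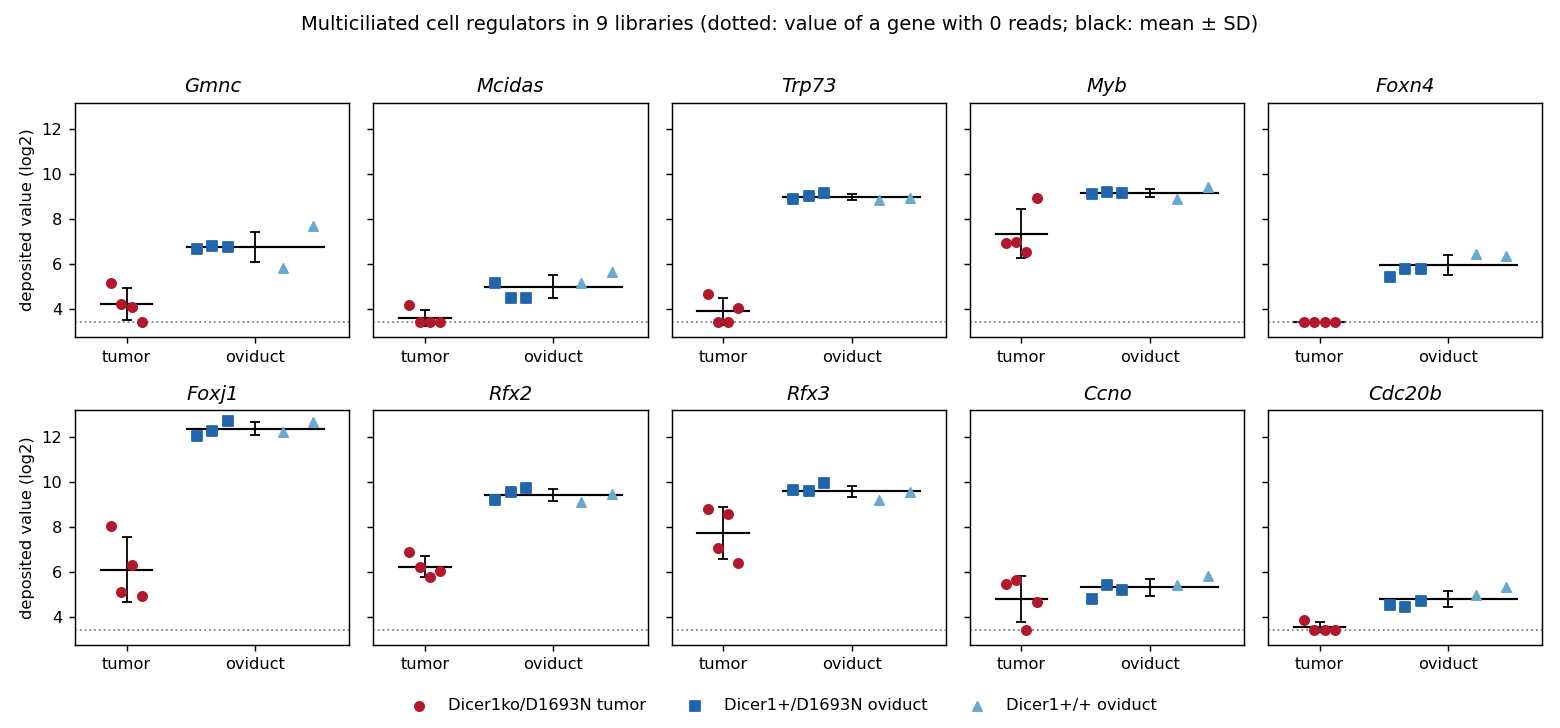
Deposited log2 value (y axis) of each regulator in 4 tumors (red circles), 3 Dicer1+/D1693N oviducts (blue squares) and 2 Dicer1+/+ oviducts (light blue triangles), with the mean and SD of tumors and of all 5 oviducts in black and the value of a gene with 0 reads, 3.43, dotted. Tumors lie below oviducts in every panel but those of Myb, where tumor 4 reaches the oviducts, and Ccno.

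The geminin-family factors act at the top of the program, and both were lower in tumors, where only tumor 1 held more than 3 reads of Gmnc or any of Mcidas. Gmnc, which starts the program, had 17.5, 3.41, 2.25 and 0 normalized counts in tumors 1 to 4, against 81.5, 92.8, 89.6, 36.9 and 190 in oviducts 1 to 5. Tumor 1 was the highest tumor, at less than the lowest oviduct, and the fall was -2.54 ± 0.42 on the log2 scale (SE, limma adjusted p = 0.00133). Mcidas, or multicilin, which drives centriole production and the exit from the cell cycle, had 2.91, 0, 0 and 0 normalized counts in tumors, against 17.9, 5.99, 5.97, 18.1 and 31.3 in oviducts. The 4 tumors held 3 Mcidas reads in all, and the 5 oviducts 81. Summed over libraries, tumors had fewer Mcidas reads per size factor by a ratio of 18.7 (95% interval 6.19 to 92.7, oviduct over tumor), and the log2 change was -1.38 ± 0.30 (limma adjusted p = 0.00591). That change cannot be compared with those of abundant genes: the floor of the deposited scale allows Mcidas a fall of at most 1.57 and Gmnc one of at most 3.34.

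Of the proteins that Gmnc and Mcidas bind, encoded by E2f4, E2f5, Tfdp1, Tfdp2 and Gmnn, 0 of 5 were called in either direction, with log2 changes of 0.07 to 0.45. Of all genes, 12.1% were called lower and 6.53% higher, so 0 of 5 is not read as a result about these partners. E2f4 had 355 to 631 normalized counts in tumors and 283 to 413 in oviducts, and E2f5 had 314 to 547 in tumors and 284.5 to 374 in oviducts, so their ranges overlapped. The log2 change was 0.45 ± 0.19 for E2f4 (SE, limma adjusted p = 0.0989) and 0.45 ± 0.18 for E2f5 (limma adjusted p = 0.0813), which does not show that their levels were equal.

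Trp73, the p53-family factor through which the geminin-family proteins reach Foxj1, is abundant in oviducts and came down to a few reads in tumors. It had 8.74, 0, 0 and 2.10 normalized counts in tumors, against 459, 508, 560, 450 and 470 in oviducts. The 4 tumors together held 11 reads and the 5 oviducts 2645. No tumor approached the oviducts, which were tight, and the log2 change was -5.09 ± 0.28 (SE, limma adjusted p = 1.58e-06), close to the 5.56 that the floor allows. The ratio of summed reads, oviduct over tumor, was 167 (95% interval 93.1 to 335). Tumor 1 held 9 of the 11 tumor reads, and without it, an alternative chosen after the data were seen, the ratio was 666 (95% interval 184 to 5498). Of its relatives, Trp53 rose in tumors (1.05 ± 0.15 on the log2 scale, limma adjusted p = 0.000601), with 995 to 1229 normalized counts in tumors and 406 to 621 in oviducts, a change at the size threshold that missed it without tumor 2 (0.995) or without oviduct 4 (0.96). Trp63 was not called and varied among tumors, from 1.13 to 68.4 normalized counts, against 41.3 to 71.6 in oviducts.

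Trp73 shares 280 exon bases with its antisense gene Trp73os. How reads over these bases were assigned is not known, because the strand setting of the counting is not given. Trp73os was at 0 in all 4 tumors and at 12.7 to 16.9 normalized counts in oviducts, a small amount beside Trp73.

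Myb, a factor that acts early in multiciliated cells and is best known in blood progenitors, split the tumors. It had 104, 107, 73.2 and 476 normalized counts in tumors 1 to 4, against 536, 577, 553, 454 and 669 in oviducts. Tumors 1, 2 and 3 were at 13.1% to 19.1% of the oviduct mean, and tumor 4 was at 85.4%, above the lowest oviduct. The log2 change over all tumors was -1.80 ± 0.42 (SE, limma adjusted p = 0.00819). Without tumor 4 it was -2.34 (limma adjusted p = 1.17e-05).

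Marker levels of other cells were set beside the high Myb of tumor 4. The summed level of 9 general epithelial markers was 38826 normalized counts in tumor 4, against 13192 to 22099 in the other tumors and 20933 to 29751 in oviducts. The summed level of 12 markers of lymphocytes and blood progenitors was 3244 in tumor 4, within the 2003 to 4319 of the tumors and within the 2950 to 4140 of the oviducts, and tumor 2, which was higher at 4319, had low Myb. Cd34 and Kit weigh most in this sum, with oviduct means of 1617 and 855 where the whole list averaged 3375. The sum thus says little about the lymphocyte markers, and it hides opposite moves in tumor 4. Ptprc, at 1178, lay above the 233 to 824 of the oviducts, and it was 1150 in tumor 2, against 312 and 240 in tumors 1 and 3. Kit, at 545, and Cd34, at 1097, lay below their oviduct ranges of 719 to 1012 and 1229 to 2146. The other markers of that list lay within the oviduct range. All defining markers of both lists had reads in tumor 4. Their part in the Myb level was not tested. Gm26577, an antisense gene that shares 559 exon bases with Myb, was also highest in tumor 4 among tumors, with 8.74, 17.03, 22.5 and 87.3 normalized counts in tumors 1 to 4, against 120.3 to 152 in oviducts. It fell by 1.84 on the log2 scale (SE 0.37, limma adjusted p = 0.00395). Without a known strand setting, how reads over the bases it shares with Myb were assigned is not known either. The relatives Mybl1 and Mybl2, cell cycle and germline members of the family, were not called, with log2 changes of 0.57 ± 0.27 and 0.62 ± 0.22.

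Foxn4, a forkhead factor whose part in multiciliated cells is known from the frog Xenopus, was the only regulator without a single read in tumors. It had 0 in all 4 tumors, against 24.6, 35.2, 35.8, 68.4 and 61.4 normalized counts in oviducts. The 5 oviducts held 247 reads. With 3 counts per tumor as the limit of detection, Foxn4 was at least 13.2-fold lower in tumors (fitted log2 change -2.54 ± 0.25, limma adjusted p = 4.14e-05, at the floor of the scale). This bound takes each tumor alone, so it is loose and cannot be compared with the ratios of summed reads of other members.

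Foxj1, the forkhead factor that governs motile cilia, had the largest fall on the log2 scale. It had 244, 15.9, 59.7 and 12.6 normalized counts in tumors 1 to 4, against 4184, 4901, 6650, 4705 and 6435 in oviducts. Even tumor 1, the highest, kept 4.54% of the oviduct mean, and tumors 2 and 4 kept 0.296% and 0.235%. The log2 change was -6.28 ± 0.54 (SE, limma adjusted p = 1.69e-05), and the ratio of summed reads, oviduct over tumor, was 60.4 (95% interval 54.2 to 67.5). Tumor 1 held 251 of the 330 tumor reads, and without it, an alternative chosen after the data were seen, the ratio was 183 (95% interval 147 to 231). The order of the largest falls depended on the scale, since the ratio of summed reads was higher for Trp73 than for Foxj1. The relatives Foxj2 and Foxj3 and the forkhead genes Foxn2 and Foxn3 were not called in either direction.

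The Rfx factors bind the X-box of ciliary promoters, and both are also used by cells with a single primary cilium. Rfx2 had 98.1, 54.5, 34.9 and 46.3 normalized counts in tumors, against 573, 728, 824, 532 and 690 in oviducts. All tumors kept between 5.21% and 14.7% of the oviduct mean, and the log2 change was -3.19 ± 0.24 (SE, limma adjusted p = 6.83e-06). Rfx3 had 419, 114, 365 and 65.2 normalized counts in tumors, against 768, 741, 962, 565 and 718 in oviducts. Tumors 1 and 3 kept 55.7% and 48.6% of the oviduct mean and tumors 2 and 4 kept 15.1% and 8.68%, so that Rfx3 divided the tumors, and the log2 change was -1.86 ± 0.45 (limma adjusted p = 0.00999). Rfx1, a relative found in many tissues, had 270 to 438 normalized counts in tumors and 607 to 699.9 in oviducts and missed the size threshold (-0.84 ± 0.15, limma adjusted p = 0.00206).

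Ccno and Cdc20b, the genes of centriole production at the Mcidas locus, differed in whether they were called, and the difference between the 2 was not tested. Ccno, an atypical cyclin, had 25.2, 30.7, 0 and 8.41 normalized counts in tumors, against 10.05, 23.96, 17.9, 23.6 and 36.8 in oviducts. Tumors 1 and 2 lay within the oviduct range, tumor 4 just below it, and tumor 3 had no read. The log2 change was -0.52 ± 0.44 (SE, limma adjusted p = 0.398), with a 95% interval of -1.48 to 0.45, which holds both no change and a fall past the threshold. The floor allows Ccno a fall of at most 1.89. The tumors held 61 Ccno reads and the oviducts 122, a ratio of 1.39 (95% interval 1.01 to 1.92, oviduct over tumor). That interval covers counting error only and not the spread between tumors. Cdc20b, a paralogue of the mitotic activator Cdc20, had 0.971, 0, 0 and 0 normalized counts in tumors, against 6.70, 5.24, 8.96, 13.4 and 21.2 in oviducts. The 4 tumors held 1 read and the 5 oviducts 58, a ratio of 40.2 (95% interval 6.94 to 1616, oviduct over tumor), and the log2 change was -1.25 ± 0.23 (limma adjusted p = 0.00251) where the floor allows at most 1.36. Under quantile normalization, which moved the median change of all genes to 0.08, the change of Cdc20b was -0.87 (limma adjusted p = 0.0206) and no longer reached the size threshold. Cdc20 itself rose in tumors (2.61 ± 0.26, limma adjusted p = 4.06e-05), with 267 to 558 normalized counts in tumors and 25.7 to 55.0 in oviducts.

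The other measured genes within 200000 bases of the locus, chosen after their values were seen, included none that was called lower. Of all genes, 12.1% were called lower and 6.53% higher. So few genes cannot show whether the falls were confined to Mcidas and Cdc20b. Gzma and Gzmk averaged only 8.06 and 4.31 normalized counts in oviducts, near the floor. Dhx29, Gpx8, Gzma and Gzmk were not called (log2 changes -0.01 to 0.34). Gpx8, which lies inside Cdc20b on the other strand without sharing exon bases, averaged 529 ± 129 normalized counts in tumors and 433 ± 65.9 in oviducts (SD). An antisense gene, 4930563N14Rik, shares 197 exon bases with Cdc20b and was not among the measured genes. How reads over those bases were assigned is not known. Esm1, an endothelial proteoglycan, was higher in tumors (2.54 ± 0.47, limma adjusted p = 0.00245).

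**Figure D2:**
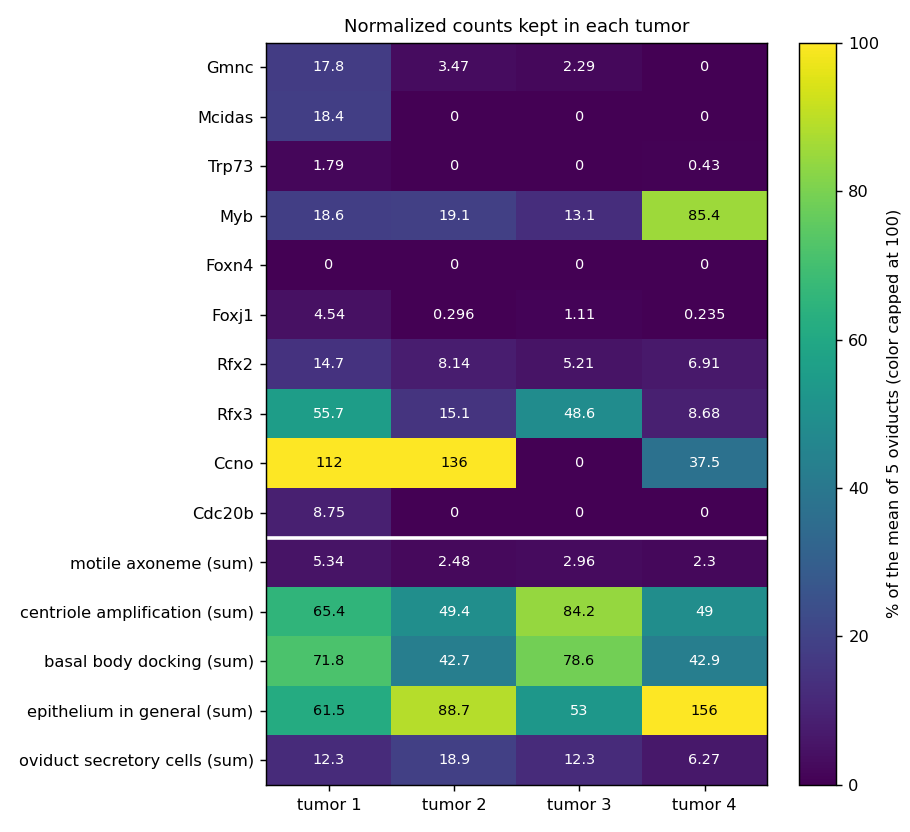
Normalized counts of each tumor (columns) as a percentage of the mean of 5 oviducts, for each regulator (upper rows) and for the summed counts of 5 marker lists (lower rows); color is capped at 100%. Foxj1 and Trp73 stay at or below 4.54% in every tumor, Rfx3, Myb and Ccno vary from tumor to tumor, and the motile axoneme genes keep 2.3% to 5.34%.

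The members were not all highest in the same tumor. Tumor 1 had reads of 9 of the 10 members, tumors 2 and 4 of 6 and tumor 3 of 5, and tumor 1 was the highest tumor for 7 members. Over the whole table, 1369, 1515, 3053 and 1945 genes had no read in tumors 1 to 4, and tumor 1 was the deepest tumor. In tumor 1, Mcidas rested on 3 reads and Cdc20b on 1. The part of depth in these counts was not tested. Tumor 1 was also the highest tumor for the summed axoneme genes, at 5.34% of the oviduct mean against 2.3% to 2.96% in the others. For Myb the highest was tumor 4, and for Ccno tumor 2. The members that kept the largest shares of their oviduct mean differed between tumors: Rfx3 in tumors 1 and 3, Myb in tumor 4, and Ccno in tumors 1 and 2. Which cells held this RNA was not tested.

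The oviduct genotypes were then compared. Against Dicer1+/D1693N oviducts, 9 members were called lower in tumors and none higher, where 11.4% of all genes were lower and 5.17% higher, and Ccno was again not called. Against Dicer1+/+ oviducts, 7 were called lower and none higher, where 9.74% of all genes were lower and 4.07% higher. Rfx3 (-1.65 ± 0.60, limma adjusted p = 0.0949) and Myb (-1.80 ± 0.57, limma adjusted p = 0.0611) were not called against the 2 Dicer1+/+ oviducts, nor was Ccno. Rfx3 was called there without tumor 1 (limma adjusted p = 0.0416), and Myb without tumor 4 (limma adjusted p = 0.000341) or by limma-voom on the recovered reads (adjusted p = 0.0318). Under quantile normalization 7 members were called against Dicer1+/D1693N oviducts, with Mcidas (-0.68, limma adjusted p = 0.118) and Cdc20b (-0.58, limma adjusted p = 0.0792) lost. These comparisons share the tumors, and their log2 changes are given side by side, with Foxj1 at -6.24 ± 0.66 and -6.34 ± 0.75, Trp73 at -5.15 ± 0.34 and -5.01 ± 0.38 and Rfx2 at -3.27 ± 0.28 and -3.06 ± 0.32 against Dicer1+/D1693N and Dicer1+/+ oviducts. In the same order the log2 change was -2.24 ± 0.22 and -2.98 ± 0.25 for Foxn4, -1.10 ± 0.30 and -1.81 ± 0.34 for Mcidas, -1.02 ± 0.22 and -1.60 ± 0.25 for Cdc20b and -0.32 ± 0.51 and -0.81 ± 0.57 for Ccno. The counts rested on few libraries: against Dicer1+/D1693N oviducts, leaving out tumor 2 or oviduct 3 left 5 members called, with Mcidas, Myb, Rfx3 and Cdc20b lost each time, and against Dicer1+/+ oviducts leaving out oviduct 5 left 5, with Gmnc (limma adjusted p = 0.182) and Mcidas (limma adjusted p = 0.0847) lost.

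Between Dicer1+/D1693N and Dicer1+/+ oviducts, 0 members were called by limma, where 0.0154% of all genes were called lower and 0.00515% higher, and 1 member had an unadjusted p under 0.05, against 2.75% of all genes. By limma-voom on the recovered reads no member was called, and 2 genes, 0.0103% of all, were. The member with the low unadjusted p was Foxn4, with 24.6, 35.2 and 35.8 normalized counts in Dicer1+/D1693N oviducts, against 68.4 and 61.4 in Dicer1+/+ oviducts (log2 change -0.74 ± 0.26, 95% interval -1.33 to -0.16, limma adjusted p = 1). Foxn4, Mcidas and Cdc20b were lower in every Dicer1+/D1693N oviduct than in both Dicer1+/+ oviducts, for Mcidas by no more than 17.9 against 18.1 normalized counts at the nearest, and such a gap held for 15.7% of all genes. Rfx3 was higher in every Dicer1+/D1693N oviduct, which held for 16.3%. The intervals of the well counted members were wide, -1.87 to 1.68 for Foxj1, -0.77 to 1.04 for Trp73 and -0.56 to 0.96 for Rfx2, so that 3 and 2 libraries leave changes of either sign within these bounds.

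**Figure D3:**
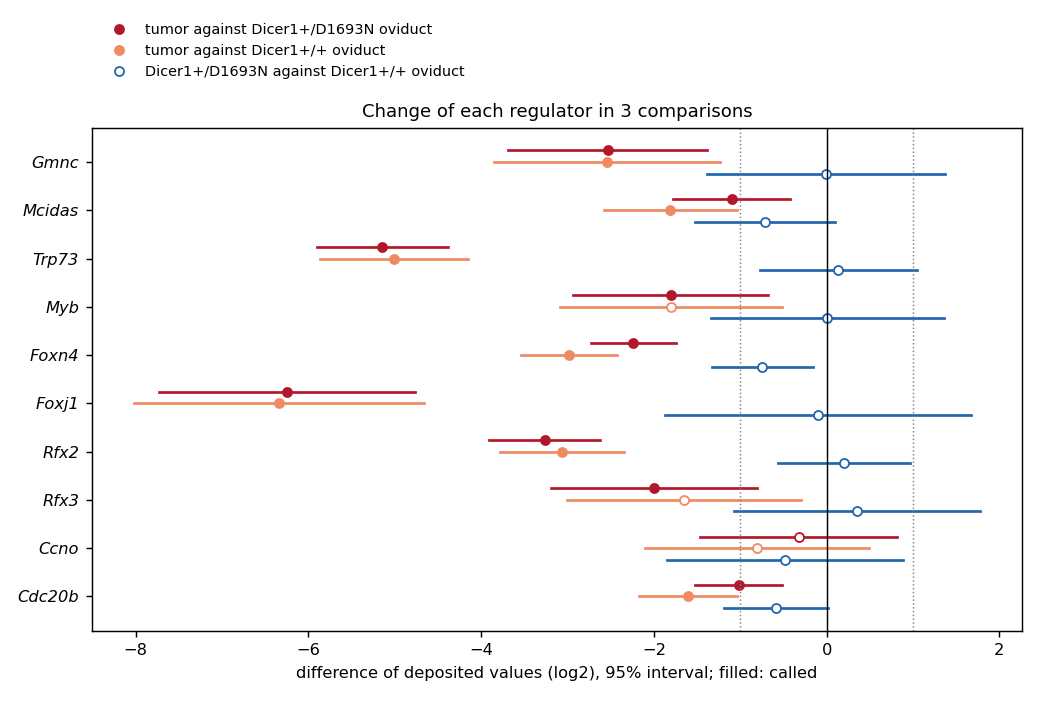
Difference of deposited log2 values (x axis) with its 95% interval for each regulator, for tumors against Dicer1+/D1693N oviducts (dark red), tumors against Dicer1+/+ oviducts (orange) and Dicer1+/D1693N against Dicer1+/+ oviducts (blue); filled points were called and dotted lines mark changes of 1. In both tumor comparisons the intervals of 9 members lie left of 0, with Foxj1 near -6.3, and no blue point is filled.

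Whether each regulator fell as far as the cilia genes was asked within libraries, as its log2 value minus the mean log2 value of 47 motile axoneme genes (dynein arms, their assembly factors, radial spokes, ruler proteins and tektins). All 47 axoneme genes were called lower in tumors, with a median log2 change of -4.80. They included Dnah5 (-7.94 ± 0.59), an outer arm dynein heavy chain, Cfap65 (-7.49 ± 0.63) and Dnah6 (-7.06 ± 0.43). Foxj1 stood 0.11 to 1.82 above the axoneme mean in tumors and 2.31 to 2.71 above it in oviducts, a relative difference of -1.73, tumor minus oviduct. The floor held this mean too, with 10, 11 and 13 of the 47 genes at 0 reads in tumors 2, 3 and 4. It allowed Foxj1 a fall of up to 8.95. The difference thus does not show that Foxj1 fell further than the cilia genes. Its change of -6.28 lay between the list's median and the changes of Dnah5, Cfap65 and Dnah6. Relative to the mean, Rfx2 stood at 0.63 to 1.27 in tumors and at -0.51 to -0.23 in oviducts, a relative difference of 1.36. Rfx3 differed by 2.69 and Myb by 2.74 in the same direction, with no overlap of tumors and oviducts for any of these 4. Each of the 4 gave p = 0.0159 by an exact two-sided permutation test over the 9 libraries, the smallest p that 4 libraries against 5 allow. The axoneme mean itself was 4.78 to 6.23 in tumors and 9.50 to 10.1 in oviducts, so an unchanged gene would also separate. For Rfx2, Rfx3 and Myb the p-value thus shows only a smaller fall than that of the axoneme mean.

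For Trp73 the relative difference was -0.54, with overlapping ranges (exact permutation p = 0.0794), and there its tumor values sat at or near the floor of the scale. On the scale of log2(normalized count + 1) the same difference was -1.80 for Trp73, -1.04 for Foxj1, 2.32 for Rfx2, 3.89 for Rfx3 and 3.93 for Myb, with no overlap for any of these 5 (exact permutation p = 0.0159 each), so that for Foxj1 the size depended on the scale. The p-values of this test are not adjusted for the 10 members tested, and those of the 5 low members (Gmnc, Mcidas, Foxn4, Ccno and Cdc20b) are not read, because the floor holds their fall. With the logarithm of summed axoneme counts and a pseudocount of 1 in place of the mean, an alternative chosen after the data were seen, the relative difference was -1.94 for Foxj1, where the groups overlapped (exact permutation p = 0.0317), and -2.70 for Trp73, where they did not (exact permutation p = 0.0159). Rfx2, Rfx3 and Myb again stood higher in tumors relative to the axoneme sum, by 1.42, 2.99 and 3.03 (exact permutation p = 0.0159 each). An unchanged gene would separate here too.

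**Figure D4:**
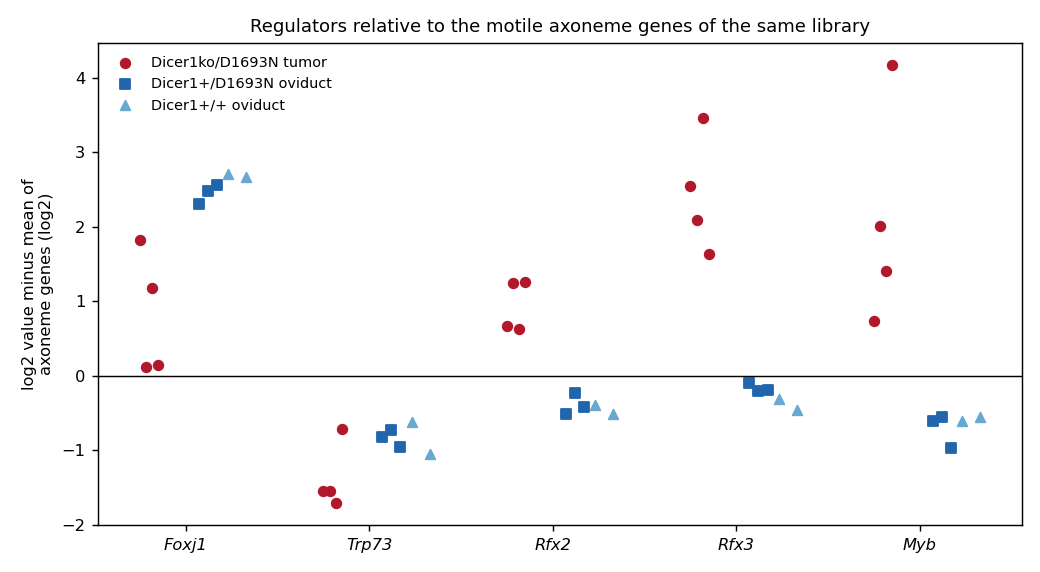
Log2 value of each well counted regulator minus the mean log2 value of 47 motile axoneme genes of the same library (y axis), in tumors (red circles), Dicer1+/D1693N oviducts (blue squares) and Dicer1+/+ oviducts (light blue triangles). Foxj1 lies lower in all 4 tumors than in any oviduct, Rfx2, Rfx3 and Myb lie higher in all 4, and Trp73 overlaps.

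Set against Foxj1 in the same way, Rfx2, Rfx3 and Myb differed less between tumors and oviducts than Foxj1 did, by 3.10, 4.42 and 4.48 on the log2 scale (exact permutation p = 0.0159 each, 9 members tested). Foxj1 itself separated tumors from oviducts, so an unchanged gene would give the same p. No more than a smaller fall is read from it. For Trp73 the difference from Foxj1 was 1.19 (exact permutation p = 0.0635), and on the scale of log2(normalized count + 1) it turned to -0.76, so that neither of the 2 can be said to have fallen further.

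Genes that act beside the regulators moved unevenly. The counts of each list stand beside 12.1% of all genes called lower and 6.53% called higher. A list with only 1 or 2 calls in a direction is not read as a change of that list. Of 21 genes of centriole amplification, 7 fell in tumors and 2 rose, with a median change of -0.25; the changes of list genes are on the log2 scale with their SE. Those that fell furthest were Ccdc78 (-4.92 ± 0.26) and Deup1 (-3.17 ± 0.33), known parts of deuterosomes, the platforms on which multiciliated cells build centrioles, and the centrin Cetn4 (-3.40 ± 0.18). Deup1 had 0 to 10.2 normalized counts in tumors and 91.2 to 189 in oviducts. Those that rose were Stil (1.79 ± 0.25) and Plk4 (1.42 ± 0.22), which serve centriole duplication in every dividing cell. Plk4 had 147 to 284 normalized counts in tumors and 59.7 to 79.3 in oviducts.

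Of 14 genes of basal body docking, 6 fell and none rose, with a median change of -0.88. Fam92b fell the most (-4.74 ± 0.34), at 0 reads in 3 tumors and 12.6 normalized counts in tumor 1, against 290 to 457 in oviducts. Cep290 (-2.17 ± 0.19) and Cep83 (-1.38 ± 0.15), which primary cilia also use, came next. Leaving out 1 library at a time gave 4 to 8 called genes.

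All 14 genes of dividing cells rose in tumors, with a median of 2.68, among them Ccnb1 (3.46 ± 0.34), Top2a (3.39 ± 0.25) and Mki67 (3.25 ± 0.26). Their summed level was 6638 to 10380 normalized counts in tumors and 1092 to 1576 in oviducts. Cdc20 belongs to this list too, and the part of cell division in the levels of Stil and Plk4 was not tested.

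Of 14 genes of the Notch signal, which holds cells back from the multiciliated fate, 2 rose, Notch4 (1.67 ± 0.21) and Dll4 (1.44 ± 0.24), both known from vessel walls, and 1 fell, Hey2 (-1.13 ± 0.35), which was not called without tumor 4 or without oviduct 1, 2, 3 or 5 (limma adjusted p = 0.033 to 0.0814, log2 change -1.13 to -0.75). The median of the list was -0.05, the same as that of all genes. Of all genes, 12.1% were called lower and 6.53% higher, so these few calls are not read as a change of the list.

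Among 9 general epithelial markers, 1 rose, Cldn4 (2.07 ± 0.51), and 1 fell, Cdh1 (-1.01 ± 0.26), a change that missed the size threshold without tumor 1 or 3 or without oviduct 3 or 4 (-0.998 to -0.80). The list's summed level overlapped between tumors, at 13192 to 38826 normalized counts, and oviducts, at 20933 to 29751. Of 6 secretory markers, Ovgp1 (-4.88 ± 1.13) and Slc1a3 (-4.40 ± 0.91) fell and Wfdc2 rose (1.64 ± 0.28), and their summed level, 6481 to 19573 in tumors and 85598 to 156920 in oviducts, was mostly Ovgp1 in oviducts. Among 12 lymphocyte and progenitor markers Kit alone fell (-1.03 ± 0.31), and was not called without tumor 2 or 3 or without oviduct 1, 3, 4 or 5 (limma adjusted p = 0.0136 to 0.0635, log2 change -1.05 to -0.66). Epcam, 1 of the general epithelial markers, had 1028 to 4357 normalized counts in tumors and 2190 to 3025 in oviducts. Epithelial RNA was thus present in every tumor while Trp73, Foxn4, Mcidas and Cdc20b were at or near 0, and the part of the cell makeup in the regulators' falls was not tested. The called genes named from these lists had limma adjusted p-values of at most 0.0333.

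**Figure D5:**
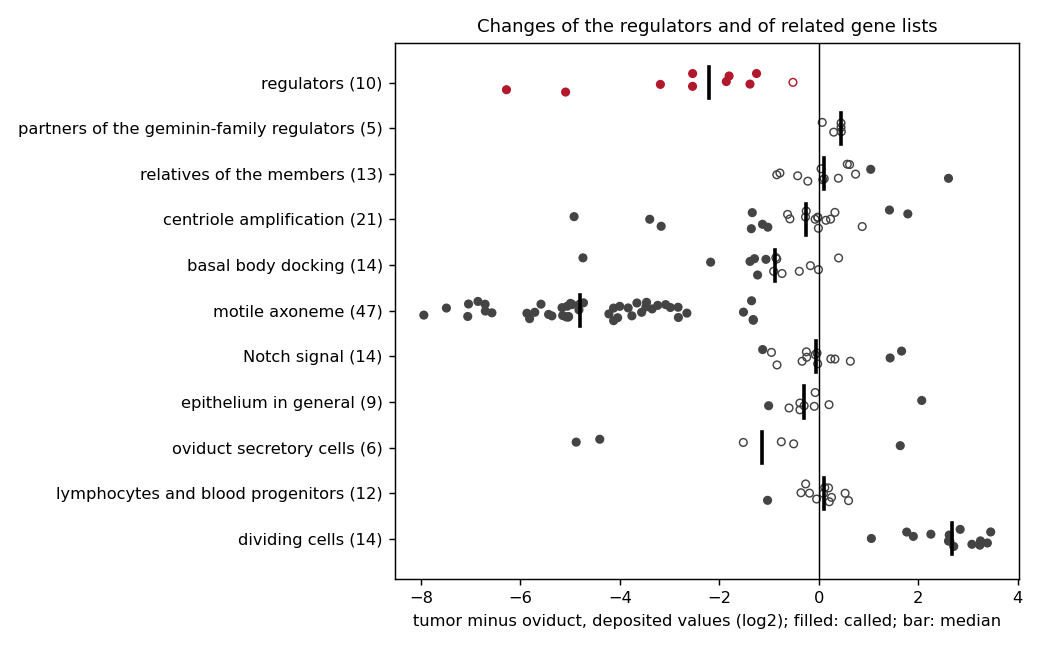
Log2 change of each gene, tumor minus oviduct (x axis), for the 10 regulators (red, top) and the genes of 10 related lists, with the number measured in brackets; filled points were called and bars mark medians. The regulators have a median of -2.20 and run from -6.28 for Foxj1 to -0.52 for Ccno, with the low members held by the floor of the scale; the axoneme genes (median -4.80) all lie left of 0 and the dividing cell genes (median 2.68) all lie right of it.

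For each regulator the genes with the most similar profile over the 9 libraries were found by the root mean square distance between log2 profiles, each centred on its own mean. This distance depends strongly on the size of the gap between tumors and oviducts. A near profile therefore does not show shared regulation. For Foxj1 they were Cfap44 (0.24), Dnah9 (0.42) and Ttc21a (0.43), genes of cilia. For Trp73 they were Ccdc151 (0.21), an arm docking protein, 2310007L24Rik (0.22) and BC051019 (0.22). For Rfx2 they were Oscp1 (0.12), Bbs1 (0.14), a part of the BBSome, and Chia1 (0.15).

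For Rfx3 they were Il17rd (0.22), Dzip1l (0.24), a primary cilium gene, and Ccdc27 (0.25), and for Myb Acaa1b (0.19), Slc4a11 (0.26) and Trpc1 (0.28). For Gmnc they were Kctd4 (0.23), Espn (0.28), an actin bundler, and Gm17135 (0.37). The remaining members sit near the floor, where many genes have like profiles. Their nearest genes were Pla2g2f, Gm16150 and Ccna1 for Mcidas, Wfdc3, 4933439K11Rik and Rsad1 for Foxn4, 9630001P10Rik, Acpt and Phf11c for Ccno, and Ocm, Gclc and 4933402J07Rik for Cdc20b. Among the members themselves Mcidas and Cdc20b were the closest pair, at 0.24, with 2 other genes nearer to Mcidas and 31 nearer to Cdc20b.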

How the data were processed

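Poly-A mRNA libraries of 4 tumors and 5 oviducts were analysed. Per the labels, a miRNeasy kit was used for extraction and random hexamers for priming, and the submitters' processing notes name FastQC 0.11.5, STAR 2.5.3a, HTSeq and GRCm38 (mm10). The table the authors deposited holds log2 values of 19435 genes whose transformation is not given in the sources used here. Undoing a variance-stabilizing transformation recovered whole reads over a size factor for 100% of values (tolerance 0.05 reads). Normalized counts are those recovered values. Tests used the deposited log2 values with limma 3.58.1 in R 4.3.3 (two-sided, trend in the prior variance, Benjamini-Hochberg over all genes, called at adjusted p under 0.05 and a change of at least 1), in a 2-group model and, for genotypes, a 3-group model. The limma script was tested on simulated data. Exact permutation tests ran over libraries. Gene lengths are merged GENCODE M21 exons, and Deup1 and Cfap65 were found under older symbols. The members and lists were chosen with earlier results of these data known. From each list the 3 called genes with the largest change in each direction are named, plus, for each member, the 3 nearest profiles. Other genes named are all the called genes of small counts, members' relatives and partners, and overlapping or neighbouring genes, chosen after their values were seen. Alternatives were limma without trend, limma-voom, log2(normalized count + 1), quantile normalization, a filter to the upper part of genes by mean level, adjusted p alone, a replicate block and leaving out each library. Labels name no batch. Same-numbered tumors and oviducts had deviations correlating at 0.117, 0.061, -0.089 and 0.006, so no pairing was used.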

Additional observations from a re-analysis of the deposited data

Results flagged for a closer look

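Mcidas and Cdc20b stood out in tumor 1 only because the other 3 tumors had no read: the gap of tumor 1 to the nearest tumor was the whole range of the group, a share of 1 for Mcidas (2.91 normalized counts, 3 reads) and a share of 1 for Cdc20b (0.971 normalized counts, 1 read). A gap of that share lies past the Dixon limit for a group of 4, which chance passes in about 1 of 20 groups, and 19 groups were examined. With 3 reads and 1 read, neither sets tumor 1 apart beyond counting error.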

How the results depend on the processing

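Between tumors and oviducts all of the 9 calls held under limma without trend, limma-voom, log2(normalized count + 1), the replicate block and the omission of any single library, and Cdc20b alone was lost under quantile normalization. With the number of the sample as a replicate block, 9 members were called; no pairing is known. Cldn4 (limma adjusted p = 0.06) and Kit (limma adjusted p = 0.0554) were not called with the block, nor Hey2 (-0.91) under quantile normalization. The filter on mean level removed the 5 low members, and 5 members were then called against all oviducts, 5 against Dicer1+/D1693N and 3 against Dicer1+/+ oviducts, by construction fewer genes. It left 1498 genes called lower, and adjusted p alone gave 2446 higher and 3605 lower. Leaving out single libraries gave 5 to 9 members called against Dicer1+/D1693N oviducts. Reversed values, none of them called, were as follows, and the cause was not tested. Ccno against Dicer1+/D1693N oviducts was 0.0477 under quantile normalization and ranged from -0.60 to 0.13 without single libraries. Between oviduct genotypes Gmnc was 0.24 by limma-voom and 0.0621 on log2(normalized count + 1), and without single libraries Gmnc ranged from -0.96 to 0.94 and Myb from -0.26 to 0.28, while Foxj1 ranged from -0.32 to 0.13. Relative to Foxj1, Trp73 was -0.76 on log2(normalized count + 1), and relative to summed axoneme counts Foxn4 was -0.43. Depth limits Mcidas, Cdc20b, Ccno, Foxn4 and Gmnc, whose changes are held by the floor. By limma-voom their log2 changes between tumors and oviducts were -3.92, -3.85, -1.40, -6.33 and -4.68 in that order, with Ccno again not called.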
